A study of Homo sapiens with 8 samples.

Results

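Genes for cholesterol, fatty acid and phosphatidylcholine synthesis were followed through an XBP1 knockdown in cells labelled HepG2, a human line from a liver tumour. The set holds 44 genes, chosen by name through their NCBI Gene IDs and RefSeq symbols, out of 18555 genes in the count table. All 44 had a row and all 44 passed the filter on low counts, with 59 to 69155 counts per gene and library. They comprise the transcription factors SREBF1 and SREBF2 with their inhibitor INSIG1, 17 enzymes that make cholesterol, the sterol carrier STARD4, and 23 genes of fatty acid, glycerolipid and phosphatidylcholine synthesis.

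RNA-seq covered 3 libraries from cells given a non-targeting control siRNA (siNC) and 3 from cells given an siRNA directed at XBP1 (siXBP1). All 6 came from cells exposed to 30 nM thapsigargin for 3 hours, starting 2 days after transfection. Thapsigargin empties calcium from the endoplasmic reticulum (ER), which brings on ER stress, so every value below is from stressed cells, and RNA-seq of unstressed cells was not analysed here. The labels name 1 cell line and give no clone, passage or number of siRNA sequences.

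Cholesterol and fatty acid synthesis are switched on together by the sterol regulatory element binding proteins (SREBPs), which sit in the ER membrane and are released to the nucleus when sterols run low. SREBF2 mainly drives the sterol pathway and SREBF1 fatty acid synthesis, while INSIG1 holds both precursors in the ER and is itself a target of SREBPs. XBP1s, the spliced form of XBP1 made under ER stress, expands the ER, and in mouse liver XBP1 is known as a driver of fatty acid synthesis. Phosphatidylcholine, the main lipid of ER membranes, is made from choline by a kinase, a CTP-using and a phosphotransferase step that forced XBP1s is known to raise. The comparison asks how transcripts of these pathways stand when XBP1 is reduced during ER stress.

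Library totals lay between 38209972 and 38890070 counts. XBP1 mRNA had 551.68, 501.55 and 499.58 counts per 1000000 (CPM) in siNC and 289.99, 298.75 and 276.21 in siXBP1, so that siXBP1 held 55.7% of the siNC mean. Its log2 fold change was -0.84 (SE 0.08, adjusted p = 0.0331 by edgeR's quasi-likelihood test). With the first principal component of these same counts as a covariate in edgeR, its adjusted p was 2.45e-09. That value may be too small, because the covariate came from the tested data. The adjusted p was 0.0546 with upper-quartile factors and 0.175, 0.213, 0.475 and 0.284 without siNC-2, siNC-3, siXBP1-1 and siXBP1-2 in turn, while its log2 fold change in these fits stayed between -0.88 and -0.84. Hepatocyte markers were nearly absent: of 14 listed, 10 had a row, 0 had a mean of 1 CPM, and together they summed to 0.618 to 0.909 CPM in siNC and 1.03 to 1.46 CPM in siXBP1. The highest of them in any library was HNF4A at 0.523 CPM. HepG2 is known to keep many hepatocyte transcripts, so these values go against the label, and the cells are called here only by it. Keratins and other epithelial genes, a list in which 5 of 9 had a mean of at least 1 CPM, summed to 6003 to 7933 CPM in siNC and 5777 to 7324 CPM in siXBP1. Those 5 were all keratins (KRT7, KRT17, KRT14, KRT8 and KRT18). The rest of that list was low, with means over the 6 libraries of 0.38 CPM for CDH1, 0.0257 for EPCAM, 0.0171 for KRT5 and 0.578 for KRT19. In the mesenchymal list 7 of 9 genes reached a mean of 1 CPM, with sums of 1612 to 1725 and 1620 to 1766 CPM. VIM made up most of these sums, with a mean over the 6 libraries of 1180 CPM. COL1A2 (0.0174 CPM) and THY1 (0.0517 CPM) were low. For leukocytes 2 of 5 markers had a row, with sums under 1 CPM in all libraries. The part of these cell markers in the lipid gene values was not tested. The libraries differ along a first principal component with 59.1% of the variance, at whose ends stand siNC-1 (score 0.643) and siXBP1-3 (-0.648), 1 library from each group.

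The stretches upstream of 4 members are shown because they hold the motifs that the text refers to. INSIG1 is the member with the smallest p, SREBF2 encodes the sterol-responsive factor, and HMGCS1 and NSDHL are sterol enzymes with repeated CCAAT boxes. Each is the 250 bases before the first listed RefSeq start in GRCh38.p14, read 5′ to 3′ on the gene's strand. Capitals mark TGACGTG (the core of an unfolded protein response element), CACGTG (an E-box), CCAAT or, in SREBF2, TCACNCCAC (a form of the sterol regulatory element). A match on the other strand appears as its reverse complement, such as ATTGG for CCAAT. INSIG1 lies at chr7:155297628-155297877 (+ strand), SREBF2 at chr22:41832855-41833104 (+), HMGCS1 at chr5:43313413-43313662 (- strand) and NSDHL at chrX:152830813-152831062 (+).
INSIG1: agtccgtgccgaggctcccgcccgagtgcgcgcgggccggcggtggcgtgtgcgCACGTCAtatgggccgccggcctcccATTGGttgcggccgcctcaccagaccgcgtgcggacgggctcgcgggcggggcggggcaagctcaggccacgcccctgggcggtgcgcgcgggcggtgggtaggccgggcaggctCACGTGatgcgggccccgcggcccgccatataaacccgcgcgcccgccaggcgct
SREBF2: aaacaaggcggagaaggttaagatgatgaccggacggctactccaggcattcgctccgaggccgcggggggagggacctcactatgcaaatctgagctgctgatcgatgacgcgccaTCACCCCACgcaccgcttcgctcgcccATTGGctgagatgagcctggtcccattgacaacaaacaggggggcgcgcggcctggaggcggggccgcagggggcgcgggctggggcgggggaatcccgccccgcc
HMGCS1: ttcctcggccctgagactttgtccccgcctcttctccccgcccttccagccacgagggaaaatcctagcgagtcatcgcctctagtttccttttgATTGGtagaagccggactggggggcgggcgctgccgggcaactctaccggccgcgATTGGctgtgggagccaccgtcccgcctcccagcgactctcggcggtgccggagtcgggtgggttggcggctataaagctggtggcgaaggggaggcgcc
NSDHL: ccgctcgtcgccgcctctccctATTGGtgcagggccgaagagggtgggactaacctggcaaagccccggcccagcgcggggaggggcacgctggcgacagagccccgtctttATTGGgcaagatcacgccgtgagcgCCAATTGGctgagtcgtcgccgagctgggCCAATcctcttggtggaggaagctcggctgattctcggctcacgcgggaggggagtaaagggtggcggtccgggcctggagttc

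The CCAAT box, a site that the factor NF-Y recognises and that is known beside sterol regulatory elements, was frequent upstream of the sterol genes. RefSeq start windows were found for 38 of the 44 members, and not for FDFT1, SQLE, FASN, DGAT1, DGAT2 and CHKA. CCAAT was present on either strand in 13 of 16 sterol enzyme and STARD4 windows (81.2%), against 6 of 22 windows of the other members (27.3%), 34.8% of the windows of 11290 genes tested and 33.0% of the first listed windows of all 27305 genes. At least 3 boxes were present in 6 of the 16 sterol windows (37.5%), against 0 of 22 other members and 4.49% of genes tested. NSDHL had 5, a pair of which overlap in the run shown above, MVK had 5 and MSMO1 4. No CCAAT was found in 3 windows of phosphatidylcholine genes and 4 of glycerolipid genes. The GC box GGGCGG, which the factor Sp1 recognises, occurred in 31 of 38 windows (81.6%), against 65.6% of genes tested and 42.3% of all genes.

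TGACGTG, tied to the unfolded protein response, occurred in 1 of 38 member windows (2.63%), that of INSIG1 at 196 bases before the start, against 2.09% of genes tested and 1.71% of all genes. The same INSIG1 window held CACGTG at 55 and CCAAT at 170 bases before the start. CACGTG occurred in 3 windows (INSIG1, SC5D and ELOVL5, 7.89%), against 8.75% of genes tested and 6.49% of all. The full ER stress element, a CCAAT box followed by 9 bases of any kind and CCACG, was matched in 0 of 38 windows and in 0.0806% of all genes. TCACNCCAC was matched in 1 window, that of SREBF2 at 133 bases before the start (2.63%), against 0.85% of genes tested and 0.875% of all genes. For the 12 members with more than 1 listed start only the first was used. With every listed start, 22 members held CCAAT, 14 of them among the 16 sterol genes, 2 held TCACNCCAC and 1 held TGACGTG. More windows give more places for a match, and no share over all genes was taken for every listed start. These matches describe letters in a window and say nothing about binding.

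**Figure D1:**
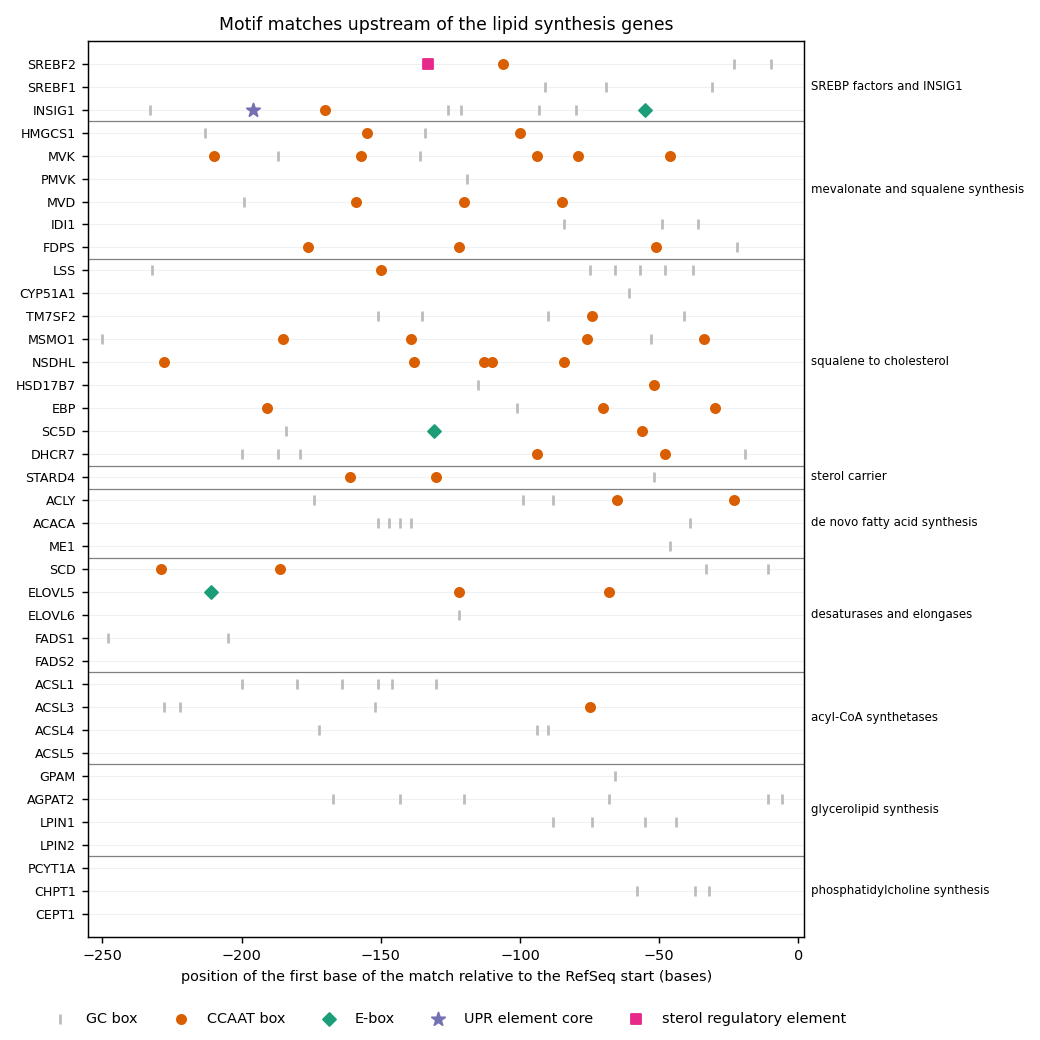
Motif matches in the 250 bases before the RefSeq start of 38 members. The x axis is the distance in bases of the first base of a match from the start, rows are genes grouped by role, and symbols stand for motifs found on either strand. CCAAT boxes (orange) gather in the rows of the sterol genes, where 13 of 16 windows hold one, and are missing from the glycerolipid and phosphatidylcholine rows.

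No lipid synthesis gene passed the test. At an adjusted p under 0.05, 0 of 44 members were called, where 1 of 14337 genes tested was called (0.00697%), that gene being XBP1. Estimates split evenly, with 22 members higher and 22 lower in siXBP1. The median log2 fold change of the 44 was 0 and that of all genes tested 0.01, with the members ranging from -0.36 for TM7SF2 to 0.31 for ACSL5. At an unadjusted p under 0.05 edgeR gave 1 member (2.27%), INSIG1, against 3.61% of genes tested, and DESeq2 gave 1 member at that limit and called 0, against 4.01% and 0.105% of genes. The siNC and siXBP1 libraries did not overlap in CPM for 3 members (6.82%), against 8.75% of genes tested. INSIG1 and ME1 were the 2 higher in siXBP1 (5.01% of genes tested) and FADS2 the 1 lower (3.74%). With counts of 1 and 3 genes, these shares are near the background.

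The size of change that the data allow is bounded by each member's 95% interval, which is not adjusted for the 44 genes. All 44 intervals lay within 1 of 0 on the log2 scale, that is, within a 2-fold change either way, with the widest bounds at -0.91 for TM7SF2 and 0.93 for ACSL5. For 37 members the interval lay within 0.5 of 0. A single interval, that of INSIG1, left out 0. The knockdown left 55.7% of XBP1 mRNA, so these bounds concern a partial loss. The labels do not say whether replicates were separate cultures, and the intervals carry only the spread between these libraries.

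**Figure D2:**
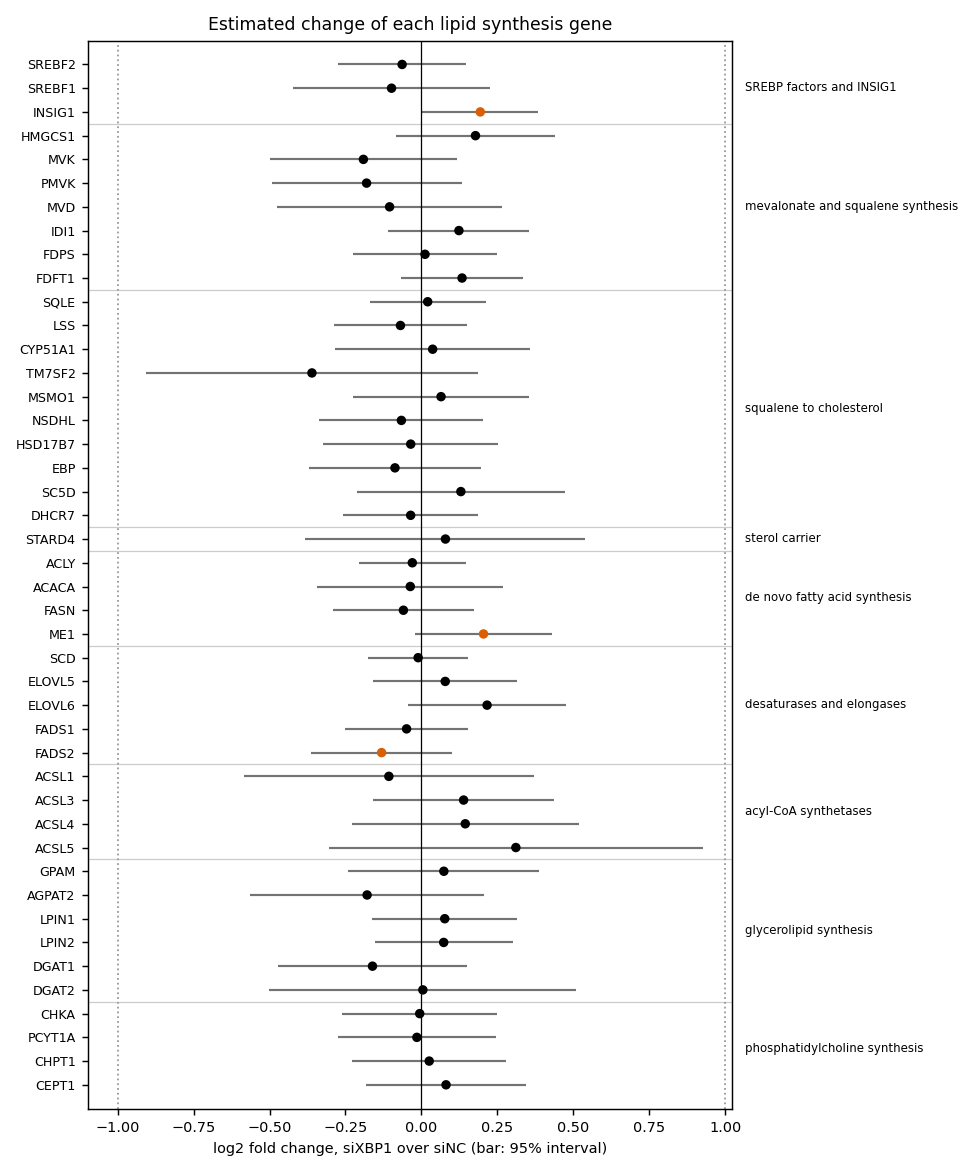
Log2 fold change of siXBP1 over siNC (points) with its 95% interval from edgeR (bars) for each of 44 genes, grouped by role. Dotted lines mark a 2-fold change, which no bar reaches, and orange points mark the 3 genes (INSIG1, ME1 and FADS2) whose libraries do not overlap between groups.

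Of the regulators, both SREBP genes overlapped between the groups. SREBF2 (chromosome 22, 41833105 to 41907305) had 10168, 8937 and 9572 counts in siNC and 9947, 8497 and 8785 in siXBP1. In CPM, siXBP1-2 (219.08) and siXBP1-3 (229.91) lay below the lowest siNC library (229.92), and siXBP1-1 (258.52) lay inside the siNC range. Its log2 fold change was -0.06 (SE 0.09, 95% interval -0.27 to 0.15). SREBF1 (chromosome 17, 17811334 to 17836986), the factor of the fatty acid genes, had 7691, 5885 and 6894 counts in siNC and 7503, 6300 and 5174 in siXBP1. Its highest library was siNC-1 and its lowest siXBP1-3, with the other 4 mixed between the groups, and the log2 fold change was -0.10 (SE 0.14, interval -0.42 to 0.23). Gene counts do not separate the SREBF1 isoforms, nor the precursor from the cleaved protein, which is where SREBP activity is set.

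INSIG1 (chromosome 7, 155297878 to 155310235), which keeps SREBP precursors in the ER, was the member furthest from no change relative to its error. It had 10770, 10925 and 11398 counts in siNC and 12219, 13301 and 12020 in siXBP1, so that all 3 siXBP1 libraries stood above all 3 siNC libraries. Its mean CPM was 285 ± 10.0 in siNC and 325 ± 15.6 in siXBP1 (SD, n = 3 each). The log2 fold change was 0.19 (SE 0.08, 95% interval 0.0035 to 0.38), with an unadjusted p of 0.0466 and an adjusted p that rounded to 1. It kept its sign in all 16 alternatives, from 0.14 to 0.21. Its smallest adjusted p over the alternatives was 0.122, with the first component as a covariate, a fit in which 0 of 44 members and 1.2% of genes passed.

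The early sterol enzymes, which turn acetyl-CoA units into mevalonate, isoprenoids and squalene, gave 4 higher and 3 lower estimates (median 0.01). HMGCS1, the synthase that feeds the mevalonate pathway, had 20431, 24871 and 24295 counts in siNC and 22922, 25660 and 29500 in siXBP1. Its lowest library was siNC-1 and its highest siXBP1-3, and the groups overlapped (log2 fold change 0.18, SE 0.12). FDFT1, which joins farnesyl groups into squalene, had 16318, 14782 and 15343 counts in siNC and 16459, 18226 and 15839 in siXBP1. Only siXBP1-3 fell inside the siNC range, and the log2 fold change was 0.13 (SE 0.09, interval -0.07 to 0.33). The kinases MVK and PMVK and the decarboxylase MVD, which act in sequence on mevalonate, had log2 fold changes of -0.19 (SE 0.14), -0.18 (SE 0.14) and -0.10 (SE 0.17). MVK had 46.7 ± 5.28 CPM in siNC and 40.9 ± 5.46 in siXBP1, PMVK 42.5 ± 6.00 and 37.4 ± 4.29, and MVD 88.4 ± 17.03 and 82.1 ± 14.4 (SD, n = 3 each). For all 3 genes siNC-1 was the highest and siXBP1-3 the lowest library. IDI1, the isomerase that makes the reactive isoprenoid unit, had 304 ± 27.6 CPM in siNC and 331 ± 27.7 in siXBP1 (log2 fold change 0.12, SE 0.10). FDPS, which builds farnesyl diphosphate, had 409 ± 33.0 and 412 ± 44.4 CPM (0.01, SE 0.11). Summed over the 7 genes, siNC held 1871.3 to 1920.5 CPM and siXBP1 1909.1 to 2100.8, ranges that overlap.

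The later sterol enzymes, from squalene to cholesterol, gave 4 higher and 6 lower estimates (median -0.04), and their summed CPM was 1548 ± 50.2 in siNC and 1547.8 ± 49.9 in siXBP1 (SD, n = 3 each). CYP51A1, the lanosterol demethylase, had 8613, 10848 and 10927 counts in siNC and 8493, 10456 and 11965 in siXBP1. Each group held 1 low library, siNC-1 and siXBP1-1, and the log2 fold change was 0.04 (SE 0.14). TM7SF2, a sterol reductase, had 413, 220 and 260 counts in siNC and 279, 208 and 203 in siXBP1. Its estimate of -0.36 (SE 0.24, interval -0.91 to 0.19) rests on the high count of siNC-1, since siNC-2 lay below siXBP1-1. Without siNC-1 the estimate was -0.06, and without both siNC-1 and siXBP1-3 it was 0.03. SC5D, a desaturase near the end of the pathway, had 3813, 5491 and 5331 counts in siNC and 4649, 5267 and 5968 in siXBP1, with siNC-1 apart from the other 2 control libraries (0.13, SE 0.15).

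The other later enzymes varied less. SQLE, the epoxidase that is one of the rate-controlling enzymes of the pathway, had 250 ± 14.5 CPM in siNC and 254 ± 10.5 in siXBP1 (log2 fold change 0.02, SE 0.09), and LSS, which closes the sterol rings, had 164 ± 10.7 and 156 ± 13.1 (-0.07, SE 0.10). MSMO1 (213 ± 25.6 and 222 ± 34.0 CPM) and NSDHL (93.0 ± 10.8 and 88.7 ± 8.69 CPM), which remove methyl groups from the ring, had 0.06 (SE 0.13) and -0.07 (SE 0.12). HSD17B7, the reductase of the same step, had -0.04 (SE 0.13), but a near-identical pseudogene copy makes its reads uncertain. EBP, an isomerase, had 179 ± 17.8 and 168 ± 23.8 CPM (-0.09, SE 0.13), and DHCR7, the last reductase, had 194 ± 17.9 and 189 ± 12.6 CPM (-0.04, SE 0.10; SD, n = 3 each). The groups overlapped for every one of the 10 later enzymes.

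STARD4, which carries cholesterol between membranes, had 3361, 4885 and 5326 counts in siNC and 3691, 4512 and 6018 in siXBP1. The spread within each group was wider than the difference between them: siNC libraries differed by up to 1.60-fold, and the log2 fold change was 0.08 (SE 0.21). Without siNC-1 and siXBP1-3, which were picked from these same counts, the estimate turned to -0.31, with an adjusted p of 0.0504 by edgeR. That was the smallest adjusted p of any member over all 16 alternatives.

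Among the enzymes that make palmitate and its precursors, FASN, ACLY and ACACA had lower and ME1 a higher estimate. FASN, the fatty acid synthase, had 40977, 37808 and 43497 counts in siNC and 44795, 35885 and 35834 in siXBP1. siXBP1-1 was the highest of the 6 and the other siXBP1 libraries the lowest, and the log2 fold change was -0.06 (SE 0.10, interval -0.29 to 0.17). ACLY, which makes cytosolic acetyl-CoA from citrate, had 600 ± 30.9 CPM in siNC and 587 ± 18.5 in siXBP1 (-0.03, SE 0.08), and ACACA, the acetyl-CoA carboxylase, had 162 ± 21.7 and 158 ± 25.6 (-0.04, SE 0.14; SD, n = 3 each). ME1, the malic enzyme that supplies NADPH, had 2329, 2387 and 2287 counts in siNC and 2477, 2661 and 2863 in siXBP1. All 3 siXBP1 libraries stood above the siNC libraries, which differed among themselves by 1.03-fold. Its log2 fold change was 0.20 (SE 0.10, interval -0.02 to 0.43, unadjusted p = 0.0717), and it was positive in all 16 alternatives, from 0.13 to 0.26.

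The desaturases and elongases, which shape the fatty acid chain, had a median of -0.01. SCD, which makes oleate, had 62903, 69155 and 65754 counts in siNC and 66763, 62143 and 65882 in siXBP1. Its interval was the narrowest of the 44, from -0.18 to 0.15 around a log2 fold change of -0.01 (SE 0.07). ELOVL6, the elongase of palmitate, had 933, 1011 and 924 counts in siNC and 1000, 1141 and 1162 in siXBP1. siXBP1-1 lay just inside the siNC range, and the estimate was 0.22 (SE 0.12, unadjusted p = 0.0929), positive in all alternatives. FADS2, the first desaturase of polyunsaturated chains, had 47.3, 42.3 and 43.7 CPM in siNC and 42.1, 40.4 and 39.1 in siXBP1. The groups do not overlap, but the gap between siNC-2 (42.321) and siXBP1-1 (42.051) is small beside the spread within either group (log2 fold change -0.13, SE 0.10). Its neighbour FADS1, the next desaturase, had 229 ± 11.9 and 222 ± 16.9 CPM (-0.05, SE 0.09), and the spans of these 2 genes share 801 bases, so their reads may mix if strand was not used in counting. ELOVL5 had 236 ± 22.3 and 248 ± 24.3 CPM (0.08, SE 0.11; SD, n = 3 each).

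Acyl-CoA synthetases, which activate fatty acids for use, had a median of 0.14, which was 0.055 with the first component as a covariate and -0.12 without siNC-1 and siXBP1-3. ACSL3, the form on the ER and lipid droplets, had 6502, 8611 and 8095 counts in siNC and 7478, 8240 and 9625 in siXBP1 (log2 fold change 0.14, SE 0.13). ACSL4, which prefers arachidonate, had 187 ± 34.6 CPM in siNC and 207 ± 41.0 in siXBP1 (SD, n = 3 each; 0.14, SE 0.17). For both, siNC-1 was lowest and siXBP1-3 highest, and without these libraries the estimates were -0.08 and -0.17. ACSL5 had the fewest counts of the 44, with 77, 69 and 59 counts in siNC and 64, 88 and 100 in siXBP1. Its estimate of 0.31 carried the widest error of the 44 (SE 0.27, interval -0.30 to 0.93), and leaving out single libraries gave 0.15 (without siXBP1-3) to 0.47 (without siXBP1-1). ACSL1, the main form of liver and fat, had 180, 246 and 243 counts in siNC and 261, 170 and 186 in siXBP1, with siXBP1-1 the highest and siXBP1-2 the lowest of the 6 (-0.11, SE 0.21).

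Genes of triglyceride and phospholipid assembly had 4 higher and 2 lower estimates (median 0.04) and summed CPM of 237.0 to 241.7 in siNC and 236.6 to 244.5 in siXBP1. LPIN1, a phosphatidate phosphatase, had 2538, 2887 and 2899 counts in siNC and 2922, 2676 and 3113 in siXBP1, with overlap (0.08, SE 0.11), and LPIN2, which has the same activity, had 0.07 (SE 0.10). DGAT1, which adds the last acyl chain of triglyceride, had 1288, 1007 and 994 counts in siNC and 1055, 998 and 864 in siXBP1 (-0.16, SE 0.14). Its siNC-1 library stood alone at the top. AGPAT2, which makes phosphatidate, had 1770, 1277 and 1526 counts in siNC and 1584, 1385 and 1040 in siXBP1 (-0.18, SE 0.17), again with siNC-1 highest and siXBP1-3 lowest. DGAT2, known as a target of XBP1 in mouse liver, had 202, 163 and 170 counts in siNC and 238, 148 and 147 in siXBP1. A single siXBP1 library lay above and the others below the siNC libraries, and the estimate was 0.00 (SE 0.23, interval -0.50 to 0.51). GPAM, the mitochondrial acyltransferase at the start of the path, had 32.3 ± 4.35 CPM in siNC and 33.9 ± 3.81 in siXBP1 (SD, n = 3 each; 0.07, SE 0.14).

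Phosphatidylcholine synthesis had estimates close to 0, from -0.01 to 0.08. CHKA, which phosphorylates choline, had 2005, 1856 and 2046 counts in siNC and 1893, 2164 and 1778 in siXBP1 (log2 fold change -0.01, SE 0.11). PCYT1A, the enzyme of the regulated CTP-using step, had 1503, 1786 and 1465 counts in siNC and 1537, 1494 and 1635 in siXBP1 (-0.01, SE 0.12). CHPT1 had 782, 875 and 775 counts in siNC and 805, 835 and 815 in siXBP1 (0.03, SE 0.11), and CEPT1 had 1154, 1060 and 1131 against 1046, 1220 and 1242 (0.08, SE 0.12). These 2 phosphotransferases complete the pathway. The groups overlapped for all 4 genes, and their intervals lay between -0.27 and 0.34.

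**Figure D3:**
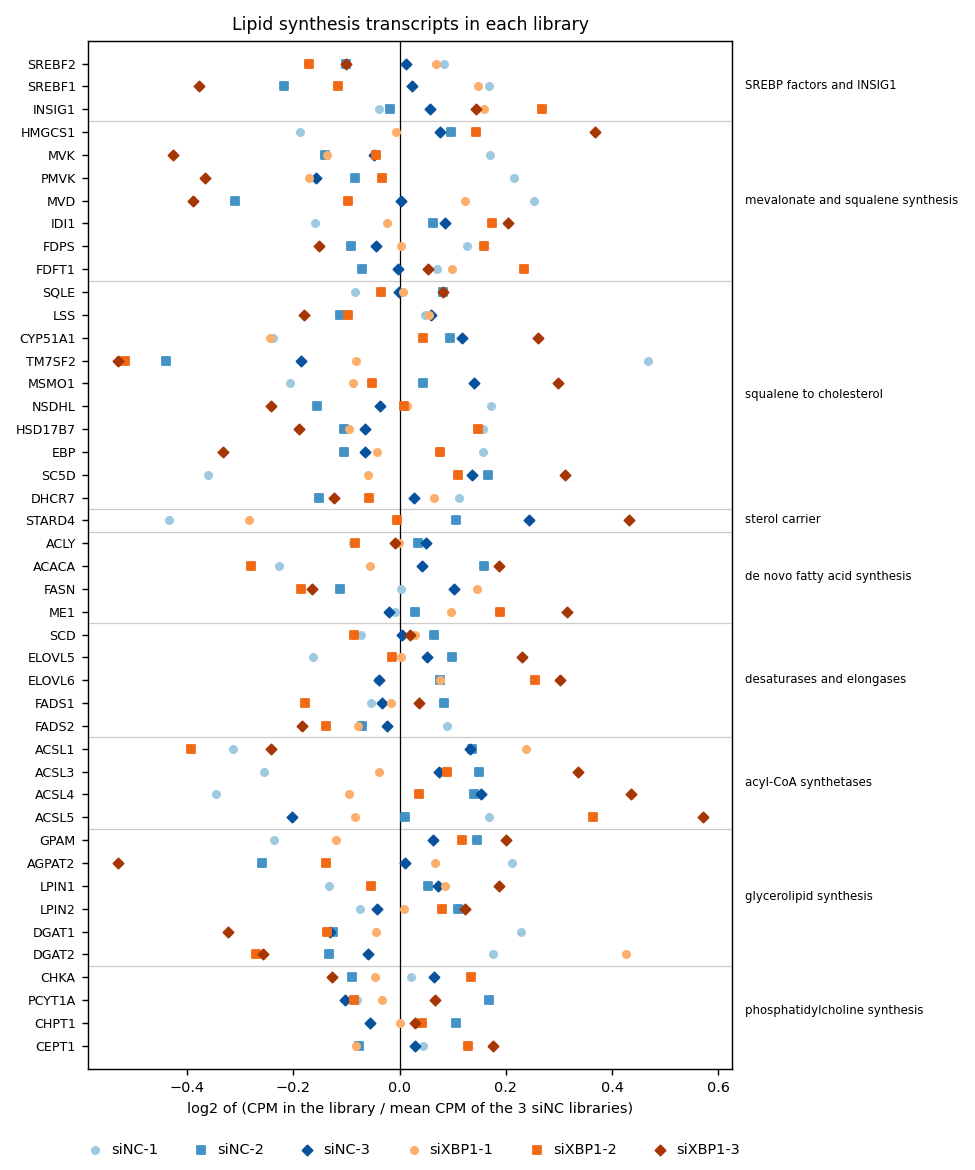
Level of each member in each library, as log2 of its CPM over the mean CPM of the 3 siNC libraries, with genes in rows by role, siNC libraries in blue and siXBP1 libraries in orange. The colours mix in nearly every row, and siNC-1 (pale circles) and siXBP1-3 (dark diamonds) often stand at opposite ends, as in TM7SF2 and STARD4.

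For most members, single libraries lay further apart than the group means. For 41 of 44 members the siNC libraries alone ranged over more than the fold change between groups, and across members the highest siNC library exceeded the lowest by a median of 1.201-fold and by up to 1.88-fold (TM7SF2). The median size of the log2 ratio of siXBP1-3 to siNC-1 was 0.35, both for the members and for all genes tested, against a median size of the log2 fold change of 0.079 for members and 0.10 for all genes. These 2 libraries were picked as the ends of the first component of the same counts, so a large ratio follows partly from that choice. A range of 3 libraries also tends to exceed a difference of means where groups do not differ. Neither comparison tests the knockdown.

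The members divided along that axis within their own pathways. For 13 of 44 members (29.5%) siNC-1 was the lowest and siXBP1-3 the highest of the 6 libraries, against 17.3% of genes tested, and for 11 members (25%) the order was the opposite, against 14.3%. The genes tested were not matched to the members for count level, so these shares are not like for like. The first set held HMGCS1, IDI1, SQLE, MSMO1, SC5D, STARD4, ELOVL5, ELOVL6, ACSL3, ACSL4, GPAM, LPIN1 and LPIN2, with log2 ratios of siXBP1-3 to siNC-1 up to 0.87 (STARD4). The second held SREBF1, MVK, PMVK, MVD, TM7SF2, NSDHL, HSD17B7, EBP, FADS2, AGPAT2 and DGAT1, with ratios down to -0.999 (TM7SF2). Enzymes of a single pathway therefore stood on both sides, such as HMGCS1 (0.56) and IDI1 (0.36) against MVK (-0.60), PMVK (-0.58) and MVD (-0.64) in mevalonate synthesis and use. Genomic span, introns included, had a median of 77813 bases in the first set and 17919 in the second. The same held over all genes tested, with 67274 bases among genes of the first order and 11567 among those of the second. The part of gene span, or of any property of these libraries, in the values was not tested.

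**Figure D4:**
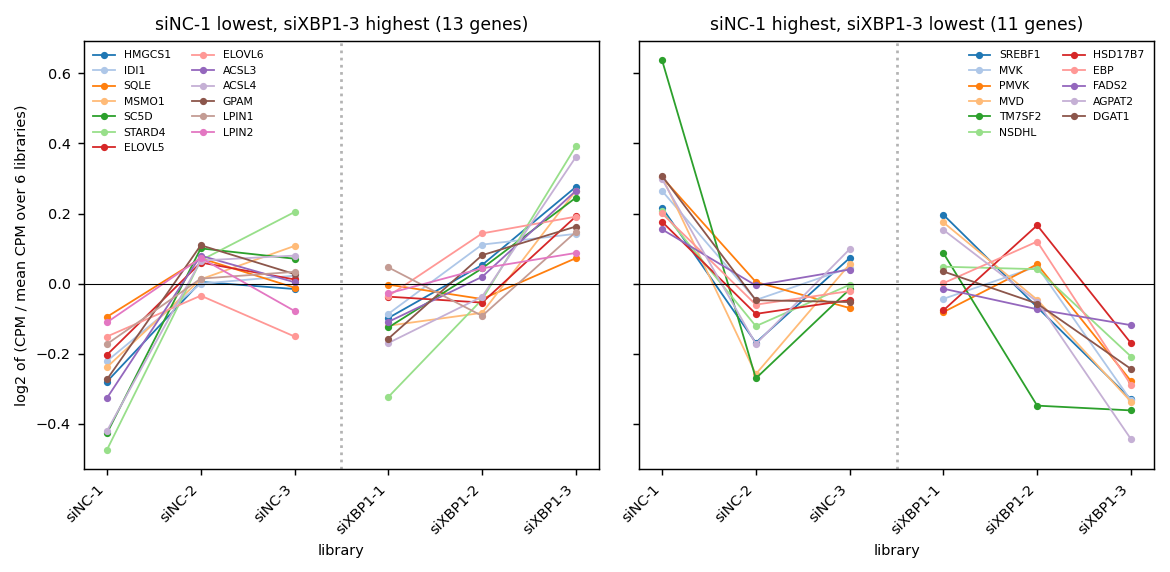
Members with siNC-1 lowest and siXBP1-3 highest (left, 13 genes) or the reverse (right, 11 genes), as log2 of CPM over the mean of the 6 libraries. Lines join the values of a gene within a group and carry no order of replicates. STARD4 spans the widest range on the left and TM7SF2 on the right, while the other 4 libraries lie closer together.

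Removing that axis moved signs of members but called none of them. Once each library's place on the first component was fitted too, 32 of 44 estimates became smaller, 7 changed sign and 0 passed. In that fit 1.2% of all genes tested passed. Without siNC-1 and siXBP1-3, 26 of 44 changed sign and 0 passed, in a fit where 702 genes (4.87%) passed. With 2 libraries a group, that fit has few degrees of freedom. The component and the 2 libraries left out were both picked from the tested counts, so p-values of either fit may be too small. INSIG1 (0.20 in both fits) and ME1 (0.18 and 0.14) kept their sign in both. Sign changes were not counted over all genes, so the member counts have no background here.

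Genes that flank these pathways gave a like picture, with 0 genes called by edgeR in any of the 8 further lists described here. At an unadjusted p under 0.05 edgeR gave 1 gene in each of 6 lists and 0 in those of isoprenoid branches and of glycerolipids and lipid droplets. The single genes made up 5 to 9.09% of their lists, against 3.61% of all genes tested. A count of 1 gene in a list cannot be told apart from that share. DESeq2 called 0 in all 8 lists, against 0.105% of all genes. Of 13 genes of SREBP processing and sterol sensing, 5 were higher and 8 lower (median -0.01). RNF145, a ubiquitin ligase of the sterol-sensing system, had 5948, 5429 and 5686 counts in siNC and 6292, 6654 and 6779 in siXBP1 (0.22, SE 0.09, unadjusted p = 0.0317), and ERLIN1, an ER lipid raft protein that restrains SREBPs, had 2929, 3144 and 2794 against 3274, 3441 and 3342 (0.19, SE 0.09). Groups did not overlap for 3 of the 13 genes (23.1%, against 8.75% of genes tested), these 2 as higher and RNF139 as lower. That was the highest share of the 8 lists. The others ran from 0% (isoprenoid branches) to 18.2% (acyl-CoA synthesis and uptake), on both sides of the share over all genes. RNF139, a ubiquitin ligase of the ER membrane that is named after its values were seen, had 30.5, 30.7 and 29.315 CPM in siNC and 23.4, 25.5 and 29.312 CPM in siXBP1 (-0.21, SE 0.12). Of 18 tested genes of sterol transport, esterification and LXR, 8 were higher and 10 lower (median -0.04). NPC1, which exports cholesterol from lysosomes, had 8817, 9051 and 9250 counts in siNC and 10523, 9745 and 10734 in siXBP1, without overlap (0.20, SE 0.08, unadjusted p = 0.0338), and VLDLR, a lipoprotein receptor, had -0.22 (SE 0.13). The 11 genes of the isoprenoid branches had 4 higher and 7 lower estimates, led by PGGT1B (0.17, SE 0.19) and RCE1 (-0.17, SE 0.15).

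Among fatty acid genes outside the set, the larger estimates came from transcripts with few counts. ELOVL3, an elongase, had 24, 22 and 20 counts in siNC and 38, 76 and 48 in siXBP1 (1.31, SE 0.39, unadjusted p = 0.00795), and ELOVL7 had 16, 24 and 38 against 44, 48 and 52 (0.89, SE 0.40). That list had 14 higher and 6 lower estimates of 20 tested. ACSS1, a mitochondrial acetyl-CoA synthetase, had 28, 74 and 25 counts in siNC and 11, 4 and 10 in siXBP1 (-2.32, SE 0.60, unadjusted p = 0.0034), and ACSBG1 had 9, 14 and 16 against 16, 56 and 22 (1.28, SE 0.57). The acyl-CoA list had 4 higher and 7 lower of 11. CDS1, which makes CDP-diacylglycerol, had 21, 15 and 22 against 44, 68 and 30 counts (1.30, SE 0.43, unadjusted p = 0.014), in a phospholipid list of 9 higher and 9 lower. SLC44A1, a choline transporter, had 0.15 (SE 0.15). LPIN3, a further lipin, had 432, 376 and 430 counts in siNC and 313, 275 and 381 in siXBP1 (-0.34, SE 0.16), in a glycerolipid and lipid droplet list of 6 higher and 11 lower.

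Fatty acid oxidation, the opposite route, had 10 higher and 4 lower estimates (median 0.05). CPT1A, which admits long-chain fatty acids into mitochondria, had 3578, 3963 and 3939 counts in siNC and 3026, 3098 and 3517 in siXBP1. Its highest siXBP1 library, siXBP1-3, came within the siNC range in CPM, and the log2 fold change was -0.24 (SE 0.10, unadjusted p = 0.0435). SLC25A20, the carnitine carrier of the same route, had 562, 474 and 538 against 637, 633 and 576 counts (0.24, SE 0.13). With the first component as a covariate in edgeR, CPT1A (adjusted p = 0.0198) and ACSS1 (adjusted p = 0.0345) were the 2 genes of these lists that passed, both as lower. They were 1 of 14 genes tested in the oxidation list and 1 of 11 in the acyl-CoA list. That fit called 1.2% of all genes tested, so 1 gene in a list says little about the list. ACSS1 had few counts, with 11, 4 and 10 in siXBP1.

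**Figure D5:**
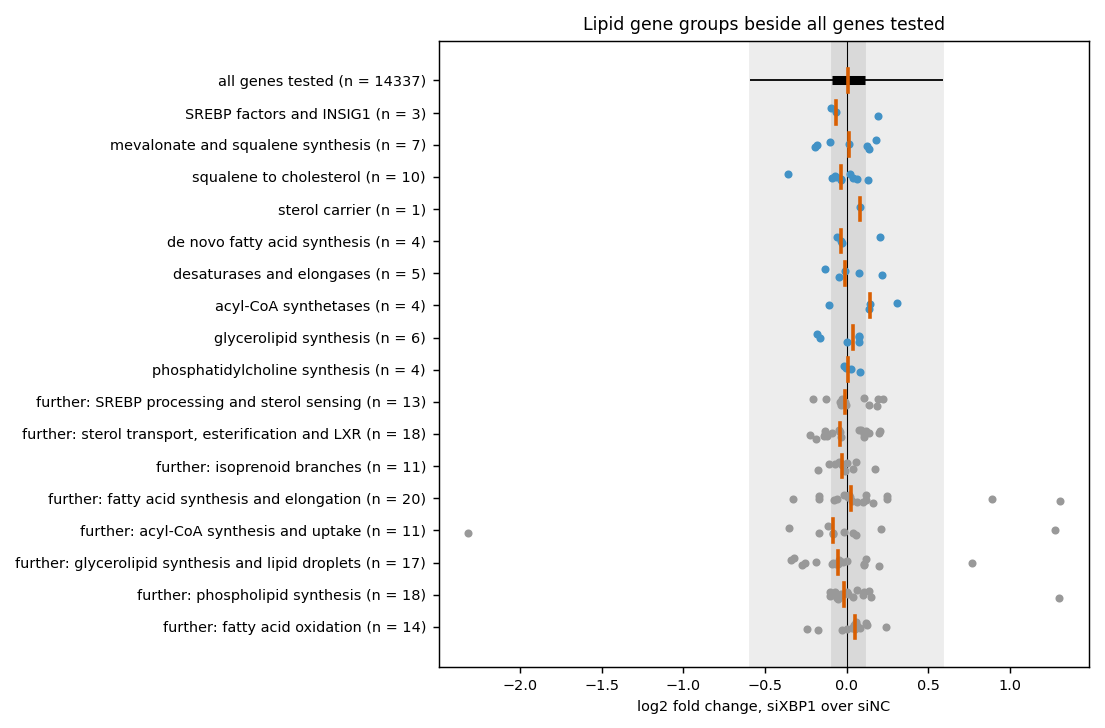
Log2 fold change of siXBP1 over siNC for the members by role (blue points) and for genes of the further lists (grey points), with each median as an orange bar. The black bar and shading give the central 50% and 95% of all 14337 genes tested, and the blue points all lie inside the 95% range, from -0.59 to 0.59.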

How the data were processed

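RNA libraries came from a stranded TruSeq kit, per the labels' protocols. The deposited values are whole-number read counts per gene. Per the submitters' processing notes, STAR 2.5.2a, featureCounts 1.5.0 and hg38 were used. For the annotation and the strand setting, nothing is given in the sources used here. Among genes with 1 to 40 counts in a library, 75.8 to 80.5% had an even count, which no source explains. For 15 of the 44 members the genomic span overlaps another counted gene. The 2 XBP1s ChIP-seq samples were not analysed here.

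Of 18555 rows, 29 had no RefSeq symbol (0.00349% of counts) and stayed out of named results. Genes passing filterByExpr (14337) were tested with edgeR 4.0.16 in R 4.3.3, by the quasi-likelihood test with TMM factors, group as the only term and Benjamini-Hochberg adjustment over all genes tested (threshold 0.05). SE is the size of the log2 fold change divided by the square root of F, and CPM is counts over the library total. A count of 3 in a library corresponds to 0.0771 to 0.0785 CPM. Alternatives used DESeq2 1.42.0, limma 3.58.1 (voom), other scalings and filters, the first component as a covariate, a replicate block and fewer libraries.

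The members and gene lists were chosen with earlier results of these data known. Counts by library are given for the 3 regulators and, in each role group, for the member with the highest mean CPM and the 2 with the smallest unadjusted p. ACSL1, DGAT2 and PCYT1A were added after their values were seen. In each further list at most the 2 genes with the smallest unadjusted p are named, apart from RNF139, which was added to the SREBP processing list after its values were seen. Promoter windows are from RefSeq for GRCh38.p14, using the first listed start of each gene.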

Additional observations from a re-analysis of the deposited data

How the results depend on the processing

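No member passed an adjusted p of 0.05 under any of the 16 alternatives, each tested by edgeR, DESeq2 or limma-voom. The count of called genes over the whole table, 1 in the fit reported, was 0 with upper-quartile factors, 0 at a threshold of 0.01, 15 with DESeq2, 172 with the first component as a covariate and 702 without both siNC-1 and siXBP1-3, and 0 to 1 with 1 library left out. Of 704 member values under the alternatives 625 kept their sign, and 11 members kept it in all, INSIG1 and ME1 among them. The covariate and the choice of siNC-1 and siXBP1-3 came from the same counts, so the 172 and 702 calls may be too many. The cause of the changes was not tested.

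The replicate numbers were not taken as pairs, because the labels do not say that they pair the libraries. Deviations of same-numbered libraries from their group means correlated at 0.597, -0.36 and 0.426, which does not settle the question. With the replicate block 1 gene was called and 0 members. That edgeR fit gave 0 members an unadjusted p under 0.05 (so INSIG1 did not have one), against 702 of 14337 genes tested. For a set as small as the members, a count of 0 is near that share and says little about them. DGAT2 had -0.021 in that fit. DGAT2 was also -0.024 with limma-voom and -0.0014 with upper-quartile factors.

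With the covariate, SQLE (-0.0024), CYP51A1 (-0.041), MSMO1 (-0.0081), HSD17B7 (0.014), DHCR7 (0.0031), STARD4 (-0.049) and CHKA (0.017) turned sign. Without siNC-1 and siXBP1-3, so did SREBF2 (0.00092), SREBF1 (0.12), HMGCS1 (-0.0093), MVK (0.0091), PMVK (0.026), MVD (0.17), SQLE (-0.049), LSS (0.0095), CYP51A1 (-0.19), TM7SF2 (0.026), MSMO1 (-0.16), NSDHL (0.11), HSD17B7 (0.12), EBP (0.11), SC5D (-0.12), DHCR7 (0.068), STARD4 (-0.31), ELOVL5 (-0.077), ACSL3 (-0.080), ACSL4 (-0.17), GPAM (-0.10), AGPAT2 (0.089), LPIN1 (-0.041), DGAT1 (0.044), CHKA (0.064) and CHPT1 (-0.0011).

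Dropping each library singly turned the sign of the following log2 fold changes, given as lowest to highest: SREBF1 -0.24 to 0.0097, MVD -0.25 to 0.036, FDPS -0.082 to 0.075, SQLE -0.024 to 0.056, CYP51A1 -0.10 to 0.16, MSMO1 -0.079 to 0.14, NSDHL -0.15 to 0.024, HSD17B7 -0.15 to 0.046, EBP -0.19 to 0.0069, SC5D -0.025 to 0.22, DHCR7 -0.11 to 0.020 and STARD4 -0.15 to 0.23. The same held for ACACA -0.17 to 0.062, SCD -0.050 to 0.016, ELOVL5 -0.016 to 0.12, FADS1 -0.11 to 0.0011, ACSL1 -0.31 to 0.0072, ACSL4 -0.037 to 0.25, GPAM -0.035 to 0.16, DGAT2 -0.26 to 0.11, CHKA -0.10 to 0.037, PCYT1A -0.073 to 0.070 and CHPT1 -0.011 to 0.074. The other members kept their sign, with SREBF2 -0.13 to -0.024, INSIG1 0.14 to 0.21, HMGCS1 0.061 to 0.26, MVK -0.28 to -0.10, PMVK -0.27 to -0.065, IDI1 0.046 to 0.19, FDFT1 0.067 to 0.17, LSS -0.13 to -0.030, TM7SF2 -0.55 to -0.058, ACLY -0.076 to -0.013, FASN -0.17 to -0.011 and ME1 0.13 to 0.26. The remaining ranges were ELOVL6 0.16 to 0.28, FADS2 -0.17 to -0.088, ACSL3 0.018 to 0.22, ACSL5 0.15 to 0.47, AGPAT2 -0.32 to -0.045, LPIN1 0.0068 to 0.13, LPIN2 0.034 to 0.12, DGAT1 -0.23 to -0.037 and CEPT1 0.017 to 0.16.

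Role group medians over the same fits ranged from -0.13 to 0.0097 for the SREBP factors and INSIG1, -0.082 to 0.061 for mevalonate and squalene synthesis, -0.10 to -0.015 for squalene to cholesterol, -0.069 to 0.025 for fatty acid synthesis and -0.050 to 0.016 for desaturases and elongases. They ranged from -0.0099 to 0.24 for acyl-CoA synthetases, -0.073 to 0.049 for glycerolipid genes and -0.0027 to 0.053 for phosphatidylcholine genes. Without both siNC-1 and siXBP1-3, the medians of the SREBP factors and INSIG1 (0.12), squalene to cholesterol (0.018) and acyl-CoA synthetases (-0.12) turned sign.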
